A study of Mus musculus with 23 samples.

Results

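The stearoyl-CoA desaturase genes Scd1, Scd2, Scd3 and Scd4 were followed in the colonic epithelium of aged mice. They were chosen by symbol, after earlier results of these data had shown a fall of Scd1 in obese mice, and each symbol stands at 1 locus, so that the family makes up 4 of the 24917 loci counted. Since the family was selected on its diet response, the diet differences of its members are given as a description, with no test. Counts of members past the thresholds applied to all genes are likewise a description, printed beside the share of all genes. For the members, tests are given on differences between the batches alone.

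The expression data are from ribosomal RNA-depleted RNA sequencing of colonic epithelium detached from the whole colon, in 23 samples of male C57BL/6 mice (C57BL/6J in the study's methods) that entered the study at 6 weeks of age and were fed for 43 weeks. Control (LF) mice had a diet with 10% fat throughout, obese (HF) mice a diet with 60% fat throughout, and formerly obese (HF-LF) mice the 60% fat diet for 15 weeks and then the 10% fat diet for 28 weeks. The fat in the diets was lard, and the labels name no genetic change or drug. Each sample has a batch label, 1 or 2, whose meaning is not given in the sources used here. In batch 1 there were 4 control, 3 obese and 4 formerly obese samples, and in batch 2 there were 4, 3 and 5. With 5 mice per regimen in the study's methods, against 8, 6 and 9 samples in hand, some samples may come from the same mouse, and p-values measure the spread between samples, which may in part be technical. The depth was 29189922 to 65320947 gene counts per sample.

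Stearoyl-CoA desaturases sit in the membrane of the endoplasmic reticulum and place a single double bond in saturated fatty acyl-CoA, turning stearate into oleate and palmitate into palmitoleate, with electrons passed on by cytochrome b5 and its reductase. The products go into triglycerides, cholesterol esters and membrane phospholipids. In the mouse Scd1 is best known from liver and adipose tissue, Scd2 from brain, Scd3 from skin and its glands, and Scd4 from heart. Transcription of Scd1 is known to be raised by SREBP1c, LXR and carbohydrate feeding and lowered by polyunsaturated fatty acids.

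The 4 genes lie side by side on chromosome 19 (mm10). Scd3 occupies chr19:44203288-44244016, Scd2 chr19:44293676-44306862 and Scd4 chr19:44333326-44346743, all on the plus strand, and Scd1 chr19:44394450-44407709 on the minus strand. Each of the GENCODE M21 transcripts used here has 6 exons. Scd1 has 4832 bases with a reading frame of 355 codons, Scd2 has 5455 bases and 358 codons, Scd3 has 3489 bases and 359 codons, and Scd4 has 3306 bases and 353 codons. The coding sequences of Scd1 and Scd2 are identical at 90.36% of aligned bases, those of Scd1 and Scd3 at 91.48%, and those of Scd2 and Scd4 at 83.8%, the lowest of the 6 pairs.

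This likeness bears on the values, because a read of 76 bases, the length sequenced here from each end of a fragment, can fit several members. The stretch of 76 coding bases that the members share most closely lies within 1 exon and encodes a histidine-rich motif of the kind that holds the enzyme's iron. It is shown for that reason, from the transcripts, 5′ to 3′ on the coding strand, with capitals at the position where the members differ. The stretch is at chr19:44299621-44299696 in Scd2, chr19:44401811-44401886 in Scd1, chr19:44235783-44235858 in Scd3 and chr19:44338922-44338997 in Scd4.
Scd2: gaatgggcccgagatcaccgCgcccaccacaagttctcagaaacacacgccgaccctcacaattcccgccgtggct
Scd1: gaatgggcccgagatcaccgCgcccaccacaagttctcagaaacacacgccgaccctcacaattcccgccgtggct
Scd3: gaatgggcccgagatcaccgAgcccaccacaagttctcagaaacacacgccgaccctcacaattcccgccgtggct
Scd4: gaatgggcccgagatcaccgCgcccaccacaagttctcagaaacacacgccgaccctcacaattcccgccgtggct
Here 75 of 76 bases were the same in all 4 genes, and Scd1, Scd2 and Scd4 were identical throughout.

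The least alike stretch of the same length shows how reads elsewhere tell the members apart. It crosses an exon junction, so the bases below are those of the spliced transcript, again with capitals where not all 4 agree.
Scd2: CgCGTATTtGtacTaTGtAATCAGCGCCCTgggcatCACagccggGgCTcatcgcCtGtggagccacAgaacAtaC
Scd1: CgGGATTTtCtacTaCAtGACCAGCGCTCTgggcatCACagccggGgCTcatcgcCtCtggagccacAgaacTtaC
Scd3: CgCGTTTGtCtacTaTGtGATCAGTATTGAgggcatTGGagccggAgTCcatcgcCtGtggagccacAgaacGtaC
Scd4: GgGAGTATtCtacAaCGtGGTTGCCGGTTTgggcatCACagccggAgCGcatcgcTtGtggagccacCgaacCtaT
Only 42 of these 76 bases were shared by all 4, and Scd1 differed from Scd2 at 11 of them. Over whole transcripts, 1.77% of the 76-base positions of Scd2 and 3.22% of those of Scd1 were also found in another member.

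Scd2 was by far the most abundant member in every sample. Counts were scaled to CPM by library size times the TMM factor of each sample. For levels between genes they were divided by transcript length in kilobases. The median over the 23 samples was 140 CPM per kilobase for Scd2 (range 113 to 211), 5.78 for Scd1 (range 1.47 to 12.6) and 0.304 for Scd4 (range 0.163 to 0.680). The 3 ranges did not overlap, so the order Scd2, Scd1, Scd4 held in each sample. Scd3 had between 0 and 4 counts per sample, with 0 in 9 of the 23 samples, and only 1 sample was above the 3 counts taken here as the floor of detection. The floor covers counting error only and came to between 0.0459 and 0.103 CPM by library size alone. Of the reads counted on the family, Scd2 held between 92.3% and 98.8%.

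Scd1, the member known for its response to diet in liver, was low in obese mice. In batch 1 it stood at 40.4, 27.9, 39.4 and 26.8 CPM in the 4 LF samples, at 18.4, 12.5 and 10.2 CPM in the 3 HF samples, and at 48.3, 39.0, 50.7 and 60.8 CPM in the 4 HF-LF samples. In batch 2 it stood at 29.8, 29.2, 34.5 and 40.3 CPM in the LF samples, at 7.09, 11.8 and 9.80 CPM in the HF samples, and at 24.9, 26.4, 20.3, 25.0 and 28.7 CPM in the HF-LF samples. All 6 HF samples were thus below all 17 others, with no overlap in either batch. Groups that did not overlap between HF and LF mice were seen for 13.7% of the 14428 genes of batch 1 and 27.3% of the 14377 genes of batch 2, and between HF-LF and HF mice for 7.94% and 27%, and nothing is read from the place of Scd1 among them.

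**Figure D1:**
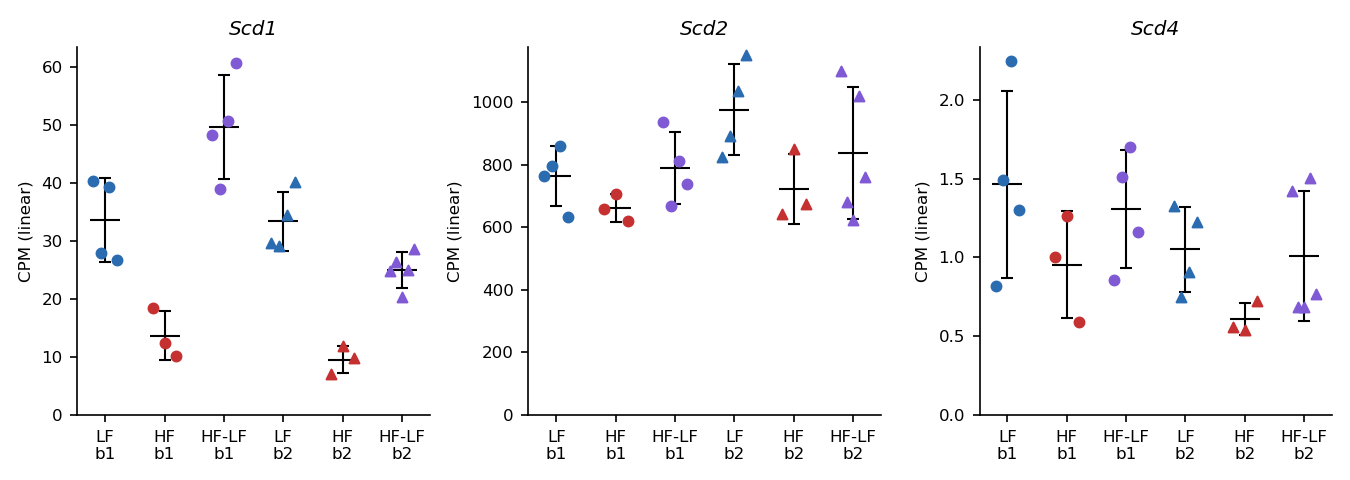
Levels of Scd1, Scd2 and Scd4 in CPM (linear axes from 0) in the 23 samples, by diet and batch (b1 and b2; circles, batch 1; triangles, batch 2), with the mean as a horizontal line and the SD as the bar. For Scd1 the 6 HF samples lie between 7.09 and 18.4 CPM, below the other 17, while the diet groups of Scd2 and Scd4 overlap, apart from HF and LF samples of batch 2 for Scd4.

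In log2 terms, Scd1 was lower in obese than in control mice 2.46-fold in batch 1 (log2 fold change -1.30, SE 0.22) and 3.50-fold in batch 2 (-1.81, SE 0.16). In the fit over both batches the log2 fold change was -1.57 (SE 0.18). The formerly obese mice were above the obese mice by 1.85 (SE 0.22), or 3.60-fold, in batch 1 and by 1.39 (SE 0.16), or 2.62-fold, in batch 2. These comparisons share the HF samples, so they are not independent of each other.

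Genes were called at an adjusted p under 0.05 and a fold above 1.2 in edgeR's quasi-likelihood test. Between HF and LF mice, 0 of 14428 genes (0%) were called in batch 1, 7.44% of 14377 genes in batch 2 and 18.1% of 14385 genes in both. The 0 of batch 1 stands against 3198 genes at an unadjusted p under 0.05, 478 called by DESeq2 and 2422 by limma voom with sample weights. Of the 3 members that passed the filter on low counts (all but Scd3), 0 were past these thresholds in batch 1, 1 in batch 2 (Scd1) and 3 in both batches. Over both batches DESeq2 called 3 of them among 2795 genes in all, and voom 2 among 2354. With a replicate block 1 was called, among 2877 genes in all. Between HF-LF and HF mice the share of genes called was 0.00693% in batch 1, 14.5% in batch 2 and 10.3% in both, and 1 member, Scd1, was past the thresholds in each. With a replicate block for same-numbered samples of all 3 diets of batch 1, 0 genes were called between HF-LF and HF mice there, Scd1 included. These counts come from the contrasts on which the family was selected, and nothing is read from them. Leaving out 1 sample at a time moved the number of genes called between HF and LF mice from 0 to as many as 1352 in batch 1 (without HF sample 2) and between 15 (without HF sample 2) and 2560 (without LF sample 4) in batch 2. Between HF-LF and HF mice the 2084 genes called in batch 2 became 11 to 2778, and the 1488 of both batches became 501 to 2669. In batch 1 Scd1 was past the thresholds between HF-LF and HF mice with all 11 samples but not without HF sample 2 or 3 or HF-LF sample 1, 3 or 4, while its log2 fold change stayed between 1.66 and 2.13 over all 11 such fits. Over both batches the 3 members past the thresholds between HF and LF mice became 1, Scd1, in 8 of 23 such fits, those without LF sample 2 or 3 or HF sample 1 or 3 of batch 1 or without LF sample 1 or 4 or HF sample 1 or 2 of batch 2.

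**Figure D2:**
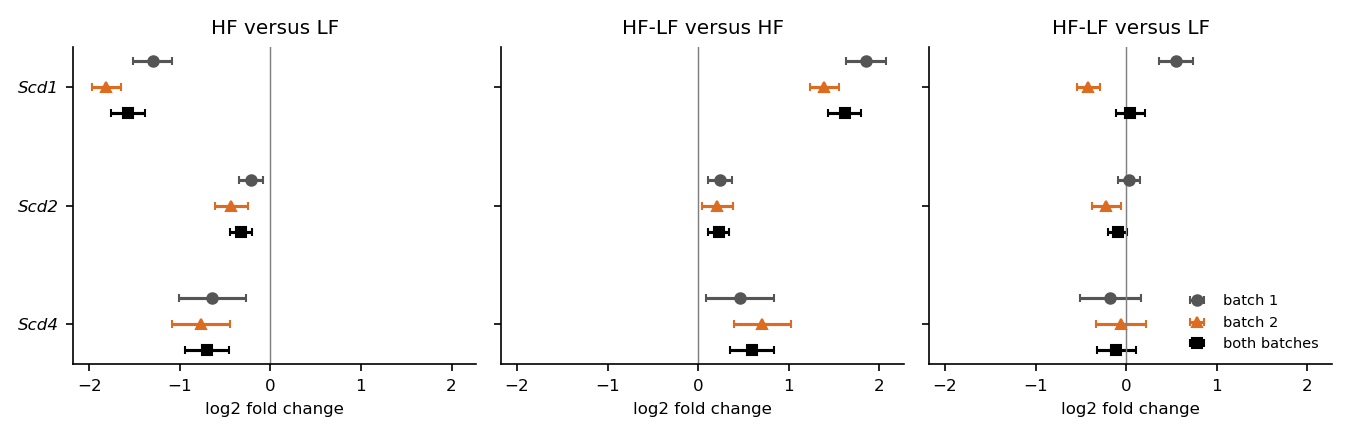
Log2 fold changes (points) with their standard errors (bars) of Scd1, Scd2 and Scd4 in the 3 diet comparisons, for batch 1 (circles), batch 2 (triangles) and both batches (squares). Scd1 lies between -1.30 and -1.81 in HF versus LF mice and between 1.39 and 1.85 in HF-LF versus HF mice, and has opposite signs in the batches in HF-LF versus LF mice.

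Formerly obese mice were above the control level of Scd1 in batch 1 and below it in batch 2. In batch 1 the mean of Scd1 was 49.7 ± 8.97 CPM (SD, n = 4) in HF-LF mice and 33.6 ± 7.28 CPM (SD, n = 4) in LF mice, a log2 difference of 0.55 (SE 0.19), with overlapping values. In batch 2 it was 25.1 ± 3.06 CPM (SD, n = 5) against 33.4 ± 5.15 CPM (SD, n = 4), a log2 difference of -0.42 (SE 0.13), and all 5 HF-LF samples were below all 4 LF samples, as was the case in either direction for 1.27% of genes. Over both batches the difference was 0.05 (SE 0.16). In this comparison 6 smooth muscle markers had a median log2 fold change of 2.01 in batch 1, -1.12 in batch 2 and 0.20 in both. None was called by edgeR, DESeq2 or voom, with 4, 1 and 0 at an unadjusted p under 0.05. For the 5 fibroblast and endothelial markers tested the medians were 1.07, -0.77 and 0.05. The part of these cells in the values of Scd1 was not tested. The share of genes called between HF-LF and LF mice was 0% in batch 1, 0.00696% in batch 2 and 0% in both, with 763, 669 and 591 genes at an unadjusted p under 0.05, and no member was among those called. DESeq2 called 4, 15 and 6 genes and voom 0, 0 and 3.

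The difference between HF-LF and LF mice was compared between the batches as an interaction. The HF-LF minus LF difference of Scd1 was lower in batch 2 by 0.97 (-0.97, SE 0.25), at an unadjusted p of 0.000791 and an adjusted p of 0.632 over 14725 genes in edgeR's test, so it did not pass. The same quantity, batch 2 minus batch 1, was -0.49 (SE 0.29) for HF minus LF and -0.48 (SE 0.28) for HF-LF minus HF, given as values because the family was selected on these differences. None of the 3 interactions called any gene (0%, 0% and 0%), with 957, 1124 and 1133 genes at an unadjusted p under 0.05 for HF minus LF, HF-LF minus LF and HF-LF minus HF, and 0, 2 and 0 genes called by DESeq2. For HF-LF minus LF, 6 of 6 smooth muscle markers had an unadjusted p under 0.05, and 0 were called by edgeR or DESeq2. Their part in the values of Scd1 was not tested. Within a diet, LF samples did not differ detectably in Scd1 between the batches (log2 difference -0.01, SE 0.18, edgeR adjusted p = 0.973), HF samples were at -0.50 in batch 2 relative to batch 1 (SE 0.22, edgeR adjusted p = 0.126), which did not pass, and HF-LF samples were lower in batch 2 by 0.98 (-0.98, SE 0.17, edgeR adjusted p = 0.000646), with all 5 below all 4 of batch 1, and 14.5% of the 14725 genes had no overlap between these groups in either direction. Between the batches 19.1% of genes were called in LF samples, 13.3% in HF samples and 12.4% in HF-LF samples.

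Scd2, the main transcript of the family in these samples, had smaller differences. In batch 1 it stood at 764, 797, 858 and 633 CPM in LF samples, at 659, 706 and 618 CPM in HF samples, and at 936, 668, 811 and 738 CPM in HF-LF samples. In batch 2 it stood at 825, 890, 1034 and 1148 CPM in LF samples, at 643, 849 and 674 CPM in HF samples, and at 1099, 679, 624, 1019 and 761 CPM in HF-LF samples. HF sample 2 of batch 2 was above 1 LF and 3 HF-LF samples of its batch, and the groups overlapped in both batches and in all 3 comparisons. The log2 fold change of HF versus LF mice was -0.21 (SE 0.13) in batch 1, -0.43 (SE 0.18) in batch 2 and -0.32 (SE 0.12) in both, and that of HF-LF versus HF mice was 0.24 (SE 0.13), 0.21 (SE 0.17) and 0.23 (SE 0.12). With 1 sample left out, HF-LF versus HF mice ranged from 0.16 to 0.31 in batch 1 and from 0.09 to 0.33 in batch 2. LF samples of batch 2 were above those of batch 1 by 0.35 (SE 0.16), which did not pass the test (edgeR adjusted p = 0.114).

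Scd4 was near the lower end of what was counted, with 21 to 83 reads per sample. Its values were 0.818, 1.49, 2.25 and 1.30 CPM in LF samples, 1.01, 1.26 and 0.591 CPM in HF samples, and 0.860, 1.51, 1.70 and 1.16 CPM in HF-LF samples of batch 1. In batch 2 they were 1.33, 0.751, 0.905 and 1.22 CPM in LF samples, 0.557, 0.540 and 0.725 CPM in HF samples, and 1.42, 0.686, 0.683, 1.5 and 0.768 CPM in HF-LF samples. The HF samples of batch 2 were all below the LF samples, by a narrow margin and beside the 27.3% of all genes given above, and the groups overlapped in the other comparisons. The log2 fold change of HF versus LF mice was -0.64 (SE 0.37) in batch 1, -0.77 (SE 0.32) in batch 2 and -0.70 (SE 0.25) in both, and between HF-LF and HF mice it was 0.46 (SE 0.37), 0.71 (SE 0.31) and 0.59 (SE 0.24). With 1 sample left out, the 2 values of batch 1 ranged from -0.87 to -0.35 and from 0.20 to 0.70.

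Since Scd2 outweighs the rest, the family as a whole followed it. The summed level of the 4 genes was 798 ± 99.8 CPM (SD, n = 4) in LF, 676 ± 45.6 (n = 3) in HF and 839 ± 116 (n = 4) in HF-LF samples of batch 1. In batch 2 it was 1009 ± 150 CPM (SD, n = 4), 732 ± 113 (n = 3) and 862 ± 212 (n = 5). The log2 fold change of this sum in HF versus LF mice was -0.24 (SE 0.13) and -0.46 (SE 0.18), against -1.30 and -1.81 for Scd1 alone. The make-up of the family differed between the diets. Per kilobase, Scd2 was 20.6 ± 3.58 times as abundant as Scd1 in LF samples of batch 1 (SD, n = 4), 45.2 ± 11.9 times in HF samples (n = 3) and 14.3 ± 2.68 times in HF-LF samples (n = 4). In batch 2 the ratio was 25.8 ± 1.14 (n = 4), 68.3 ± 10.6 (n = 3) and 29.7 ± 7.44 (n = 5). The lowest HF sample of each batch, at 31.7 and 60.9, was above the highest LF sample, at 25.3 and 27.0. The ratio carries the fall of Scd1 on which the family was selected, so nothing is read from this separation. In bulk RNA, fewer cells that express a gene and less RNA of it per cell cannot be told apart.

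**Figure D3:**
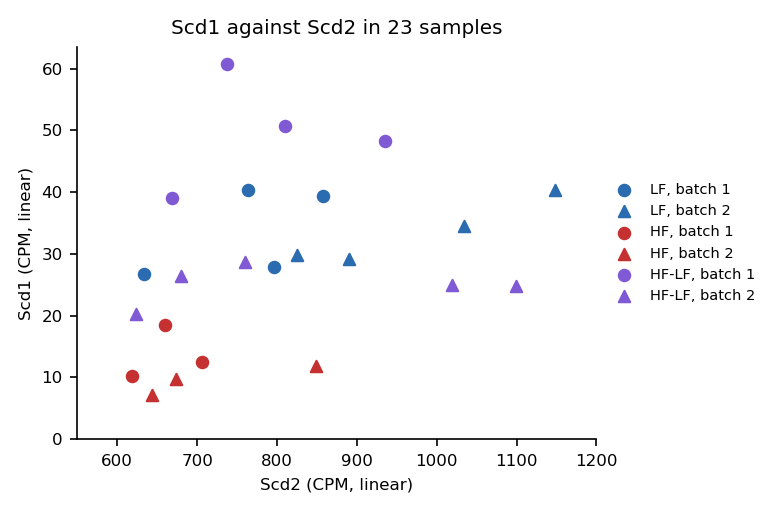
Scd1 against Scd2 in CPM (both axes linear, the horizontal axis not starting at 0) in the 23 samples, coloured by diet (circles, batch 1; triangles, batch 2). The 6 HF samples lie along the bottom at 7.09 to 18.4 CPM of Scd1 while their Scd2, at 618 to 849 CPM, overlaps that of the other samples, at 624 to 1148 CPM.

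The counts were also set against what reads shared between the members could give. How the authors' counting treated reads that fit several loci is not stated in the sources used here. If all Scd2 reads from stretches identical to Scd3 had been counted on Scd3 as well, 208 to 472 counts would be expected there, while 0 to 4 were found, and Scd3 was below that number in 23 of 23 samples. For Scd4 the same reckoning gives 95.7 to 217 counts against 21 to 83 found, again lower in 23 of 23. For Scd1 it gives 320 to 726 counts against 331 to 2146 found, with 2 samples below, both of them HF samples of batch 2. As a share of the Scd1 count this upper limit came to between 51.1% and 130% in the 6 HF samples (median 92.8%) and between 17.4% and 63.2% in the 17 others (median 38.0%). The reckoning takes reads as spread evenly along the transcript and as single reads. The libraries were read in pairs, and what the other read of a pair adds was not tested. Whether and how many Scd2 reads are in the Scd1 count was not tested. Mir5114 lies within Scd2 on the same strand, and its reads cannot be told apart from those of Scd2.

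The rest of the fatty acid pathway was examined with 9 lists of genes around the desaturase step, holding 128 genes of which 122 were tested. They are given for the fit over both batches, in which HF and LF mice differed at 26 of the 122, with 12 higher and 14 lower, beside the 18.1% of all genes given above. Their median log2 fold change was 0.07, against -0.01 for all genes. In batch 2 alone 11 were called, and in batch 1 0 were called by edgeR, with 36 at an unadjusted p under 0.05, 7 called by DESeq2 and 21 by voom. The 11 calls of batch 2 became 0 without HF sample 2 or LF sample 3, 1 without LF sample 1, 2 without HF sample 3, 3 without LF sample 2, 7 without HF sample 1 and 20 without LF sample 4. In the fit over both batches, leaving out any 1 sample gave between 19 and 35 calls, and 16 of the 26 genes kept theirs in all 23 such fits. In the same fit 6 smooth muscle markers had a median log2 fold change of -1.37, with 0 called by edgeR, DESeq2 or voom and 1 at an unadjusted p under 0.05, and their part in these values was not tested.

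Of 9 genes tested that make the saturated substrate, 1 fell in HF mice and 0 rose, and their median log2 fold change was -0.07. Fatty acid synthase, Fasn, which builds palmitate, fell by 0.36 on the log2 scale (-0.36, SE 0.10, edgeR adjusted p = 0.0141). Acly, which supplies cytosolic acetyl-CoA, had a log2 fold change of -0.08 (SE 0.07), Acss2, which makes it from acetate, -0.08 (SE 0.06), Acaca, the acetyl-CoA carboxylase of the cytosol, -0.19 (SE 0.08), and Acacb, its mitochondrial partner, -0.01 (SE 0.16). Me1, the malic enzyme that supplies NADPH, had the most positive value, 0.64 (SE 0.28), and none of these 5 passed the test.

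All 10 tested genes of fatty acid elongation were above 0 in HF versus LF mice (median 0.23), 3 of them rose and 0 fell. Elovl7, an elongase of long saturated chains, stood at 123, 114, 101 and 124 CPM in LF and 140, 133 and 184 CPM in HF samples of batch 1, and at 101, 115, 98.8 and 113 CPM in LF and 141, 149 and 135 CPM in HF samples of batch 2. Its HF samples were all above its LF samples in both batches, beside the 13.7% and 27.3% of all genes without overlap given above, and it rose by 0.40 (SE 0.07, edgeR adjusted p = 0.00172). The ketoacyl reductase Hsd17b12 rose by 0.30 (SE 0.08, edgeR adjusted p = 0.00945) and the dehydratase Hacd1 by 0.34 (SE 0.08, edgeR adjusted p = 0.00824). Elovl6, which lengthens palmitate to stearate and so makes the substrate of the desaturases, was at 0.25 (SE 0.08, edgeR adjusted p = 0.0282), under the fold of 1.2. Elovl1 was at 0.17 (SE 0.06) and Elovl5 at 0.07 (SE 0.07).

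Neither the other desaturases nor the electron carriers were called. Among 6 other desaturases, 0 passed by edgeR, DESeq2 or voom and 2 had an unadjusted p under 0.05, with Fads1, the delta-5 enzyme, at -0.07 (SE 0.15) and Fads2, the delta-6 enzyme, at -0.29 (SE 0.12). Among 6 genes of electron supply, 0 passed by any of these tools and 2 had an unadjusted p under 0.05. Cytochrome b5, Cyb5a, was at 0.18 (SE 0.08) and its reductase Cyb5r3 at 0.07 (SE 0.07).

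Of 20 regulators known to act on Scd1 transcription, 5 fell in HF mice and 0 rose (median -0.13). Srebf1, which encodes SREBP1, stood at 146, 171, 191 and 145 CPM in LF and 119, 141 and 127 CPM in HF samples of batch 1. In batch 2 it stood at 189, 197, 198 and 199 CPM in LF and 134, 147 and 143 CPM in HF samples, with no overlap in either batch, as for 13.7% and 27.3% of all genes. It fell by 0.40 on the log2 scale (-0.40, SE 0.07, edgeR adjusted p = 0.00263). Srebf2, its partner for sterol genes, fell by 0.28 (-0.28, SE 0.08), Mlxipl, the carbohydrate-responsive factor ChREBP, by 0.37 (-0.37, SE 0.12), and the fatty acid receptors Ppara by 0.37 (-0.37, SE 0.08) and Ppard by 0.40 (-0.40, SE 0.10), with edgeR adjusted p-values of 0.0129, 0.0299, 0.00522 and 0.008. The calls of Srebf2 and Mlxipl were each lost in 6 of the 23 fits that left out a sample. For both these were the fits without LF sample 2 or 3 of batch 1 and without LF sample 1 or HF sample 2 of batch 2, and in addition those without LF sample 3 or HF sample 3 of batch 2 for Srebf2 and without HF sample 1 or 3 of batch 1 for Mlxipl. The LXR genes Nr1h2, at -0.25 (SE 0.06, edgeR adjusted p = 0.00536), and Nr1h3, at 0.07 (SE 0.08), and also Insig1, at -0.16 (SE 0.14), and Pparg, at 0.03 (SE 0.09), were not called, Nr1h2 for its fold alone.

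Of 7 targets of LXR, the oxysterol receptor, 4 fell and 0 rose (median -0.48). Abca1, which exports cholesterol, stood at 39.0, 47.9, 38.8 and 34.6 CPM in LF and 25.4, 27.6 and 21.0 CPM in HF samples of batch 1, and at 43.3, 48.5, 35.8 and 36.9 CPM in LF and 24.4, 23.7 and 35.0 CPM in HF samples of batch 2. Its HF samples were below its LF samples in both batches, in batch 2 by 35.0 against 35.8 CPM at the nearest, beside the same 13.7% and 27.3% of all genes, and it fell by 0.63 (-0.63, SE 0.14, edgeR adjusted p = 0.00536). The sterol exporters Abcg5 (-0.54, SE 0.16) and Abcg8 (-0.48, SE 0.15) and Mylip (-0.52, SE 0.13), which encodes a ubiquitin ligase, fell too, at edgeR adjusted p-values of 0.0176, 0.0206 and 0.00786, and the call of Abcg8 was lost without LF sample 2 or HF sample 1 of batch 1. Of 20 SREBP2 sterol targets 1 fell and 0 rose over both batches (median 0.10), and the batches differed in sign, with a median of 0.30 and 16 of 20 above 0 in batch 1 and a median of -0.09 and 16 of 20 below 0 in batch 2. Gene by gene, the interaction of batch with HF versus LF called 0 of the 20 by edgeR and 0 by DESeq2. An unadjusted p under 0.05 was seen for 3 of them. The difference between the medians was not tested.

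Of 24 genes that use monounsaturated fatty acids, 5 rose and 1 fell (median 0.05). Mogat2, which acylates monoacylglycerol, rose by 0.57 (SE 0.15, edgeR adjusted p = 0.0101), Dgat2, which completes triglycerides, by 0.41 (SE 0.11, edgeR adjusted p = 0.0123) and Agpat5 by 0.32 (SE 0.07, edgeR adjusted p = 0.00691), and Agpat2 and Acsl5 rose by 0.30 and 0.28. The call of Acsl5 was lost without HF sample 3 of batch 1, and that of Agpat2 in 7 fits, without LF sample 2 or 3 or HF sample 3 of batch 1, LF sample 1 of batch 2 or any HF sample of batch 2. Gpam, the mitochondrial glycerophosphate acyltransferase, fell by 0.31 (-0.31, SE 0.08, edgeR adjusted p = 0.0125). Dgat1 (-0.03, SE 0.04), Soat1 (0.11, SE 0.08), Lpcat3 (0.10, SE 0.08) and the droplet coat gene Plin2 (0.05, SE 0.07) did not pass. Of 21 PPAR targets 4 rose and 2 fell (median 0.16). Fabp1, the fatty acid carrier, rose by 1.02 (SE 0.30, edgeR adjusted p = 0.0176), Acot1 by 0.61 (SE 0.21), Angptl4 by 0.59 (SE 0.19) and Acadl by 0.32 (SE 0.09), and Acaa1a and Ucp2 fell by 0.28 (-0.28) and 0.27 (-0.27). The call of Fabp1 was lost without HF sample 2 of batch 2, that of Angptl4 without HF sample 1 or 3 of batch 1 or HF sample 1 of batch 2, and that of Acaa1a without LF sample 2 or HF sample 3 of batch 1 or LF sample 3 of batch 2. Acot1 kept its call in 15 and Ucp2 in 14 of the 23 fits, and both lost it without LF sample 2 or 3 or HF sample 1 or 3 of batch 1, and without LF sample 3 or HF sample 2 of batch 2. In such fits the log2 fold change came as near 0 as -0.16 for Acaa1a and Ucp2, 0.19 for Agpat2 and 0.17 for Acsl5. Pdk4 (-0.06, SE 0.13) and Cpt1a (0.01, SE 0.06), known markers of fat oxidation, did not pass.

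**Figure D4:**
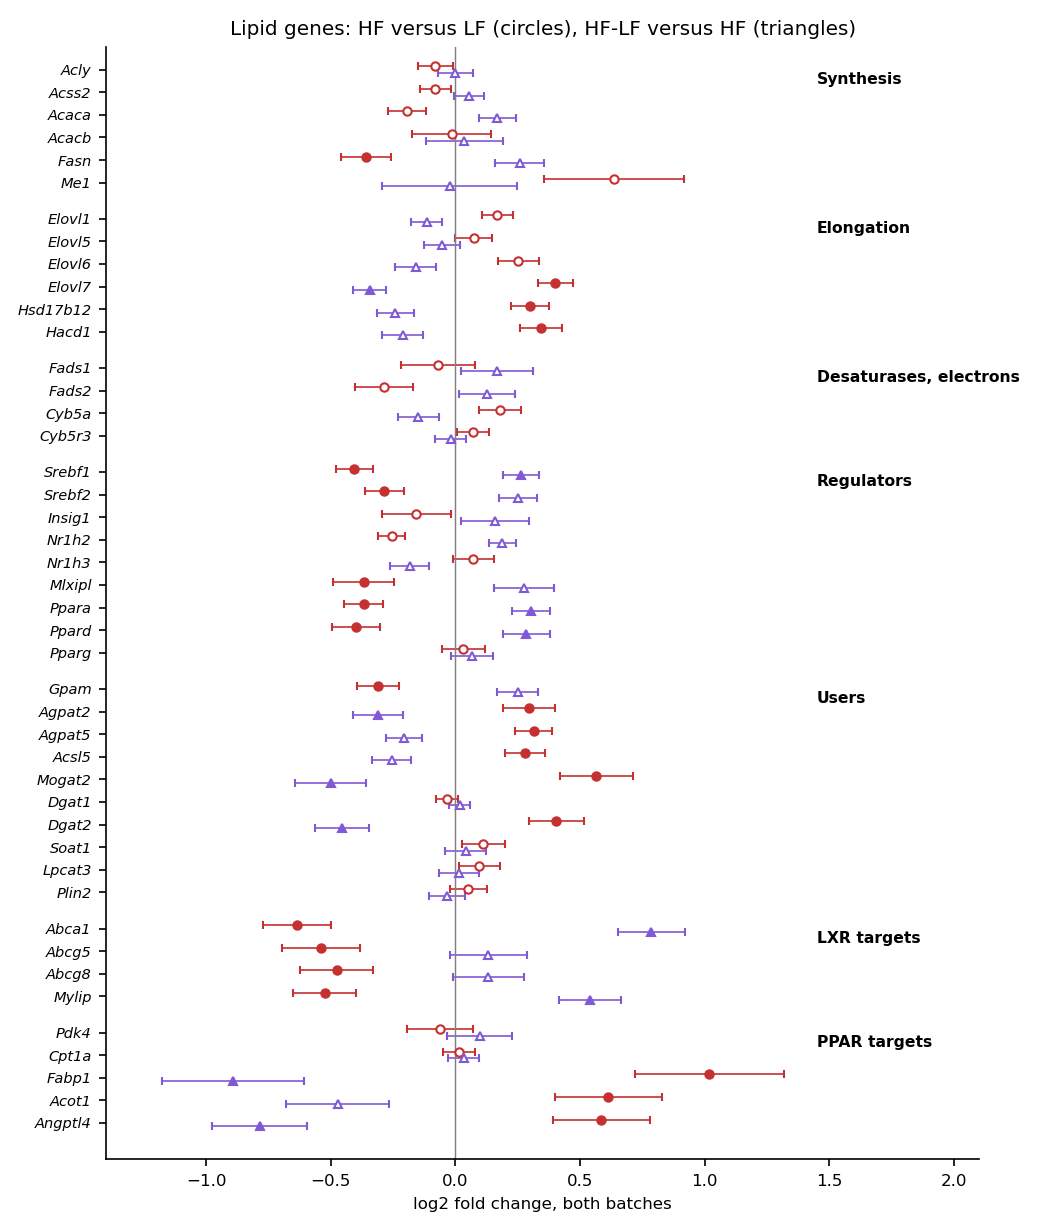
Log2 fold changes with standard errors of lipid genes by role, in HF versus LF (red circles) and HF-LF versus HF mice (purple triangles), in the fit over both batches, with filled symbols for genes that passed both thresholds. Elovl7, Mogat2, Dgat2 and Fabp1 lie right of 0 in HF versus LF mice and Srebf1, Abca1 and Mylip left of it. All values lie within 1.02 of 0.

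After the change of diet, 14 of the 122 genes were called between HF-LF and HF mice over both batches, with 7 higher and 7 lower, beside the 10.3% given above. In the same fit the 6 smooth muscle markers had a median log2 fold change of 1.58, with 0 called by edgeR, DESeq2 or voom and 3 at an unadjusted p under 0.05, and the 5 fibroblast and endothelial markers tested had one of 0.68, and their part was not tested. Elovl7 fell by 0.34 (-0.34, SE 0.07, edgeR adjusted p = 0.00778), Dgat2 by 0.45 (-0.45, SE 0.11, edgeR adjusted p = 0.0141) and Mogat2 by 0.50 (-0.50, SE 0.14, edgeR adjusted p = 0.0243), while Abca1 rose by 0.79 (SE 0.13, edgeR adjusted p = 0.00499). Mylip, Ppara, Ppard, Srebf1 and Acaa1a were also higher, and Agpat2, Hacd3, Angptl4 and Fabp1 lower. Srebf1 was at 0.26 (SE 0.07), on the edge of the fold threshold, and kept its call in 5 of 23 fits that left out a sample. Acaa1a kept its call in 2 of those fits, Ppard in 9, Fabp1 in 14, Agpat2 in 15, and Mogat2, Ppara and Hacd3 in 21, and all 7 lost it without HF sample 2 of batch 2. Of the 14 calls 6 stood in all 23, among them those of Elovl7, Dgat2, Abca1, Mylip and Angptl4. The 14 calls became 6 without HF sample 2 of batch 2, 8 without HF sample 3 of batch 1 and 22 without HF sample 2 of batch 1. This comparison shares its HF samples with the one before. Of the 122 genes 0 were called by edgeR between HF-LF and LF mice in batch 1, batch 2 or both, with 14, 2 and 5 at an unadjusted p under 0.05, while voom called 0 and DESeq2 called 2 LXR targets in batch 1.

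The genes most like each member were ranked by Pearson's r of log2 CPM over the 23 samples, across 14385 genes, as a description. The samples share diets and batches, which raise such values. Scd1 was most like Plin4, which coats lipid droplets (r = 0.85), Cdc14a (0.84), Atl1 (0.83), Slc2a6 (0.82) and Prkcz (0.81), and once the mean of each diet and batch was taken off, these values were between 0.48 and 0.58 and none of the 5 stayed among its 5 most like genes. The 5 genes most like Scd2 included Acaca (r = 0.85), Aacs, which activates acetoacetate for lipid synthesis (0.84), Stard4, a carrier of sterols (0.80), and Srebf1 (0.79). Within groups the 5 values were between 0.76 and 0.83, and 3 of the 5 stayed. The 5 most like Scd4 included Frmd4a (0.85), Chd9 (0.84), Lamc1 (0.82) and 5031425E22Rik (0.82). Scd1 and Scd2 had an r of 0.59, and of 0.44 within groups, and Scd1 and Srebf1 had an r of 0.66, and of 0.07 within groups.

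The labelled tissue was checked against 8 lists of markers. The 10 epithelial markers, led by the mucin gene Muc2, summed to between 28828 and 44671 CPM, with a median log2 fold change of 0.05 in HF versus LF mice over both batches. Of 7 markers of adipocytes, cells rich in Scd1, 6 had a median under 0.1 CPM (Adipoq, Plin1, Lep, Retn, Cfd and Fabp4), and Cidec made up nearly all of their sum of 3.68 to 17.2 CPM. Of 13 markers of squamous epithelium and sebaceous gland, 7 had a median under 0.1 CPM, Krt5 and Awat1 had 0 counts in all samples, and the sum, led by Krt10, was between 3.43 and 5.14 CPM. In batch 1 this sum was 3.82 to 4.0 CPM in HF samples, below the 4.60 to 5.06 CPM of LF samples, and in batch 2 it overlapped (3.88 to 5.14 against 4.07 to 4.62 CPM). Immune markers, led by Ptprc, summed to between 13.3 and 28.2 CPM, and neuron and glia markers, led by Ret, to between 2.79 and 6.52 CPM. The 3 Hox genes of the distal colon, led by Hoxb13, summed to between 200 and 379 CPM. Fibroblast and endothelial markers, led by Col3a1, summed to between 4.32 and 56.2 CPM. The 5 of them that were tested had a median log2 fold change in HF versus LF mice of -0.14 in batch 1, -1.01 in batch 2 and -0.63 in both, and in HF-LF versus HF mice of 1.21, 0.33 and 0.68. For the 5 immune markers tested these medians were -0.45, -0.50 and -0.38, and then -0.11, 0.56 and 0.31. The part of these cells in the values of Scd1 was not tested.

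Smooth muscle markers moved with some of the groups. The sum of the 6 markers, led by Myh11, was 1.18, 3.50, 9.32 and 11.4 CPM in LF samples, 10.2, 9.64 and 0.545 CPM in HF samples, and 24.8, 50.3, 2.55 and 19.8 CPM in HF-LF samples of batch 1. In batch 2 it was 19.6, 7.32, 30.6 and 5.79 CPM in LF samples, 4.63, 0.849 and 3.22 CPM in HF samples, and 15.1, 1.82, 2.13, 11.1 and 6.02 CPM in HF-LF samples. None of the 6 was at 0 throughout. Their median log2 fold change in HF versus LF mice was 0.16 in batch 1, where Scd1 was at -1.30, and -2.40 in batch 2, where 1 of 6 was called by edgeR, 1 by DESeq2 and 3 by voom, and 6 had an unadjusted p under 0.05, beside the 7.44% of all genes given above. In HF-LF versus HF mice it was 1.90 and 1.06, with 0 of 6 called by edgeR in either batch against 2 and 1 at an unadjusted p under 0.05, and DESeq2 called 0 and 1 and voom 0 and 0. Between the HF-LF samples of the batches, where Scd1 was lower in batch 2, 3 of the 6 markers were called lower in batch 2 by edgeR and 2 by DESeq2, and 5 had an unadjusted p under 0.05, beside the 12.4% of all genes given above. The part of smooth muscle in the values of Scd1 was not tested.

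**Figure D5:**
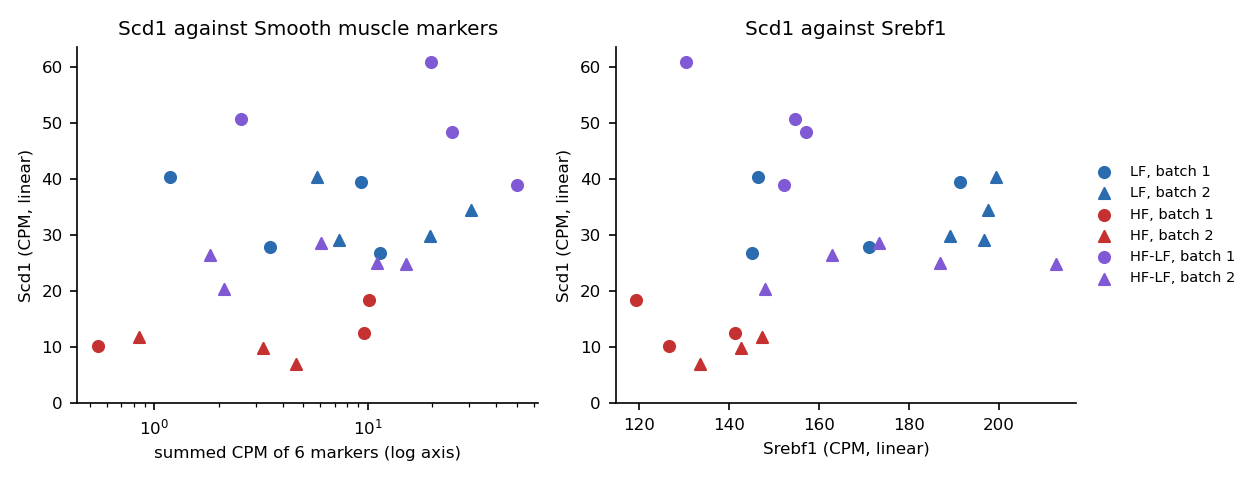
Scd1 in CPM (linear) against the summed CPM of 6 smooth muscle markers (log axis, left) and against Srebf1 in CPM (linear, right) in the 23 samples, coloured by diet (circles, batch 1; triangles, batch 2). HF samples lie at 7.09 to 18.4 CPM of Scd1 over 0.545 to 10.2 CPM of muscle markers. Their Srebf1 lies between 119 and 147 CPM.

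Around the cluster, 20 other loci lie within 500 kb, and 15 were tested. Their median log2 fold change in HF versus LF mice over both batches was -0.06. Of these, 1 was called in each of HF versus LF and HF-LF versus HF mice, beside the 18.1% and 10.3% of all genes given above. It was Sec31b, which encodes a coat protein of vesicles leaving the endoplasmic reticulum, lower in HF mice by 0.67 (-0.67, SE 0.16, edgeR adjusted p = 0.00715) and higher in HF-LF than in HF mice by 0.68 (SE 0.16, edgeR adjusted p = 0.0137). The other 14 were called in neither comparison.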

How the data were processed

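The authors deposited raw counts of reads per gene locus, without normalization. Per the labels, adapters were trimmed with cutadapt 1.2.1, reads mapped to mm10 with STAR 2.5 and counted with Subread featureCounts 1.5.0-p1 from stranded libraries. The strand setting, the treatment of multi-mapped reads and the annotation are not given in the sources used here. The 5109 loci with no count were not tested.

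Differences between diets were estimated from these counts by edgeR 4.0.16 under R 4.3.3 (TMM factors, filterByExpr, quasi-likelihood F test, Benjamini-Hochberg adjustment over all genes), per batch with the 3 diets in 1 fit and over both batches with batch as covariate. Genes were called at adjusted p under 0.05 and fold above 1.2. The SE of a log2 fold change was its absolute value divided by the square root of the F statistic of that test. CPM values used TMM factors over all 23 samples, and correlations used log2 CPM with a prior count of 2. Transcripts came from GENCODE M21 and were aligned with MAFFT 7.526. The fits were tested on simulated data. Alternatives were DESeq2 1.42.0, limma 3.58.1 voom, other size factors, no filter, replicate blocks, summed samples and left-out samples.

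The members and lists were chosen with earlier results of these data known. Named genes were the members, a fixed list, up to 3 called genes per list with the largest change and 5 genes most like each member. Agpat2, Acsl5, Hacd3, Abcg8, Acadl, Acaa1a and Ucp2 were named after their values were seen, to complete counts. Under older symbols, 8 list genes were matched by Entrez identifier. Leave-one-out fits over both batches were added after seeing the data. Some genes that the rule would name are not reported here. Replicate blocks grouped same-numbered samples of all 3 diets within a batch. For the 3 same-numbered HF and HF-LF pairs of batch 1, the deviations from group means correlated at r = 0.100, 0.384 and 0.255. Over all same-numbered pairs of different diets within batches the values ran from -0.37 to 0.40. The numbers have no stated meaning.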

Additional observations from a re-analysis of the deposited data

Results flagged for a closer look

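Of 84 groups of 4 or 5 samples examined, chance would mark about 1 in 20. The sum of 6 fibroblast and endothelial markers in LF sample 3 of batch 1, 34.2 CPM, stood apart from the other 3 LF samples of that batch, which lay between 20.4 and 21.7 CPM. Its Scd1, at 39.4 CPM, was within the range of that group. No value of Scd1, Scd2 or Scd4 in the LF and HF-LF groups stood apart in this way. The HF groups, with 3 samples each, and the sum of the members were not examined.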

How the results depend on the processing

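Over the alternatives run, Scd1 kept its direction in HF versus LF and HF-LF versus HF mice. In HF-LF versus LF mice over both batches its log2 fold change lay between -0.04 and 0.13. Its log2 fold change in HF versus LF mice of batch 1 was -0.93 with limma voom. DESeq2 called 478, 1856, 14, 4, 15 and 6 genes in HF versus LF mice of batch 1 and batch 2, HF-LF versus HF mice of batch 1, and HF-LF versus LF mice of batch 1, batch 2 and both; voom called 2422, 1991 and 3 in the first 3 of these, and 0 and 3 in the last 2. Of the list genes DESeq2 called 7 and 18 and voom 21 and 20 in HF versus LF mice of batch 1 and 2, and DESeq2 called 1 in HF-LF versus HF and 2 in HF-LF versus LF mice of batch 1. Of the Scd genes DESeq2 and voom each called 1 in HF versus LF mice of batch 1, and voom 2 in batch 2. Over both batches voom called 2 of them, among 2354 genes in all, and DESeq2 3, among 2795. RLE size factors gave 1 call over all genes in HF versus LF mice of batch 1, and no filter gave 2 there and 2 in HF-LF versus HF mice. Summing same-numbered samples gave 2 Scd genes in HF-LF versus HF mice. Of the 5 genes most like each member, Spearman's rho kept 1 for Scd1 and 3 for Scd4, and centring within diet and batch kept 0, 3 and 3 for Scd1, Scd2 and Scd4.

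Leaving out 1 sample gave these ranges of calls over all genes: HF versus LF 0 to 1352 in batch 1, 15 to 2560 in batch 2 and 1591 to 3703 in both; HF-LF versus HF 0 to 3, 11 to 2778 and 501 to 2669; HF-LF versus LF 0 to 6, 0 to 2 and 0 to 3. For list genes they were 0 to 17, 0 to 20 and 19 to 35, then 0 to 0, 0 to 26 and 6 to 22. For Scd genes they were 0 to 1 in batch 1 and 1 to 3 in both for HF versus LF, and 0 to 1 and 1 to 2 for HF-LF versus HF mice.

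No source says what the replicate numbers mean. Within batches, same-numbered samples of different diets had correlations of -0.37 to 0.40 (20 pairs, median 0.07). Other-numbered samples had correlations of -0.43 to 0.45 (67 pairs, median -0.02). Of the 23 samples 11 correlated best with their own number, and the count to be met without any pairing was not worked out. With a replicate block, HF versus LF mice gave 92 calls in batch 1, 2051 in batch 2 and 2877 in both. HF-LF versus HF mice gave 0 in batch 1, and HF-LF versus LF mice 0 in batch 2 and 1 in both. The Scd genes called under the block were 1 in HF versus LF mice of batch 1, 0 in HF-LF versus HF mice of batch 1 and 1 in HF versus LF mice over both. Causes of these changes were not tested. Counts limit Scd4 (21 to 83) and Scd3 (0 to 4).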
